A study of Triticum aestivum with 4 samples.

Results

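The comparison described here sets the leaf small RNA library of winter wheat (Triticum aestivum) at spring green-up against that at winter dormancy, 2 of the 4 libraries of the series. It was followed across every name of the deposited tables, that is 371 known miRNAs and 82 predicted miRNAs, of which 360 were above 0 in at least 1 of the 2 libraries (290 known and 70 predicted). All plants were wild type, of the cultivar Shimai 22, field grown without any treatment. The top fully expanded leaves were taken at the three-leaf stage in October, at winter dormancy in early January, at spring green-up in early March, when the shoot apex formed double ridges, and at jointing later in spring. RNA of 3 biological replicates was mixed in equal amounts before library construction, so that each stage was represented by 1 pooled library. Accordingly no replicate check was possible, no test was run, and each difference below is one between 2 libraries. Leaf age, leaf position, temperature, day length, sampling date and library cannot be told apart in this design, and leaf identity could not be checked because the tables hold miRNAs only.

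Plant miRNAs are cut from hairpin precursors by Dicer-like enzymes and loaded into Argonaute proteins, where they guide the cleavage or the translational repression of transcripts with near-perfect complementary sites. Many of their conserved targets encode transcription factors that set the timing of flowering and the growth of leaves, while others act in hormone signalling and in the supply of copper and phosphate. Winter wheat passes the cold season as a rosette and needs that cold period, vernalization, before the apex turns from leaf to spikelet formation.

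Levels are given in RPM, the reads of a name scaled to the same number of reads in every library. 1 RPM stood for about 20.5 reads in the winter library and 18.1 reads in the spring library, so the level of 5 RPM used as the lower limit stood for about 103 and 91 reads. These estimates, and every interval below, assume that RPM is relative to the mapped reads of the library, which the sources used here do not state. A miRNA was counted as higher or lower where the libraries differed more than 2-fold and at least 1 of them exceeded 5 RPM. The interval after a fold, where given, is its 95% exact binomial (Clopper-Pearson) interval on the estimated reads. The intervals cover counting error only, because copies made by PCR were not separated and the spread between plants is unknown. Where a name was listed at 0 in 1 library no fold is given, since a listed 0 may also arise when reads were assigned to a similar name.

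The sequences of names on which the comparison turned are shown first, 5′ to 3′, with the seed (bases 2 to 8) in capitals. Names are those of the deposited tables, and whether each is a miRNA was not tested. Names that were higher in the spring library, chosen from the conserved families and the miR9672 pair and including both arms of miR530, were:
miR530-3p: aGGUGCAGuggcauaugcaac
miR530-5p: cUGCAUUUgcaccugcaccua
miR160a-5p: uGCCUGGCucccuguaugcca
miR394a: uUGGCAUUcuguccaccucc
miR528-5p: uGGAAGGGgcaugcagaggag
miR9672b: uACCACGAcugucauuaagca
miR9672a-3p: cCACGACUgucauuaagcauc
Those that were lower in the spring library, including both arms of miR5200, were:
miR5200a-3p: uGUAGAUAcucccuaaggcuu
miR5200-5p: aAGCCUUAgugaauaucuaca
miR319b-3p: uUGGACUGaagggugcucccu
miR159a.1: uUUGGAUUgaagggagcucug
miR156a-5p: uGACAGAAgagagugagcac
miR396c-3p: gGUCAAGAaagcugugggaag
miR165a-5p: cCGAAUUGuagucuggagaggcg
The following names carry the same or nearly the same bases as another name, and are shown because their values depended on how reads were assigned:
miR6220-5p: uCCGUUCCuaaauauaagucu
miR6224a-5p: uCCGUUCCuaaauauaagucu
miR5205b: uUAUAUUAugggacggaggga
miR1130b-3p: uCUUACAUuaugggacggagg
Of the predicted miRNAs past the rule on the lower side, the 3 with the highest winter levels were:
novel_miR1544: aGUCUCUGccaauucuucgug
novel_miR1560: uAAACCUUcacaaauucccuug
novel_miR2745: aACUGGUCuugcuuaauuuug
The 135 known and predicted names past the rule carried 132 different seeds, and only 3 seeds were carried by a pair of names: miR169b-5p with miR169n, miR6220-5p with miR6224a-5p, and miR858b with miR6300.

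Among known miRNAs, more names were lower than higher in the spring library. Of 226 names over 5 RPM, 45 were higher (19.9%), 67 were lower (29.6%) and 114 stayed within 2-fold. Of the 45 higher names 24 were above 0 in both libraries and 21 were listed at 0 in winter, and of the 67 lower names 35 were above 0 in both and 32 were listed at 0 in spring. Over the 173 names above 0 in both libraries the median log2 ratio of spring to winter was -0.15, the quartiles were -0.78 and 0.42, and 105 names (60.7%) lay below 0. The counting interval was wholly past 2-fold for 43 of the higher and 64 of the lower names. The scatter plot of all levels shows most names along the diagonal and a small set far above it.

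**Figure D1:**
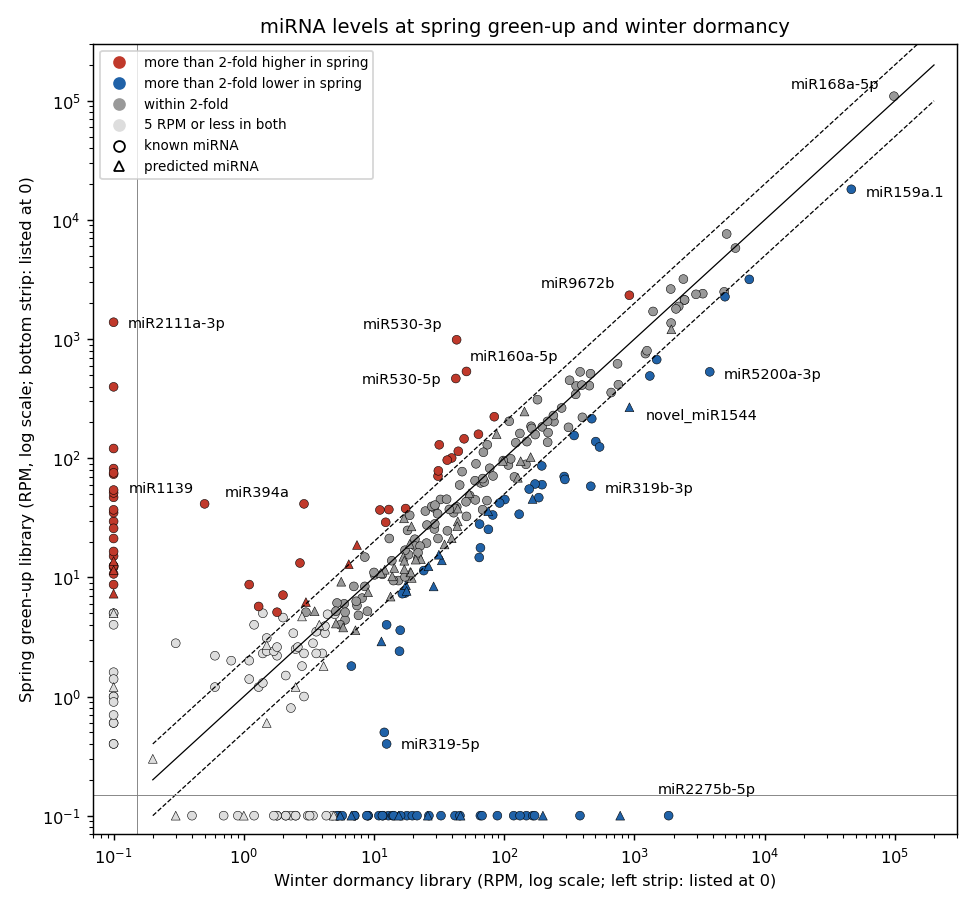
Level of each miRNA in the winter dormancy library (horizontal) and in the spring green-up library (vertical), in RPM on log axes, 1 point per name. The solid line marks equality, the dashed lines 2-fold, and points in the strips were listed at 0 in 1 library. miR530-3p, at 43.1 and 987.2 RPM, lies farthest above the diagonal among names over 50 RPM that were above 0 in both libraries.

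The direction of this excess depended on the scaling. The miR168 family made up 45.8% of all known miRNA reads in winter and 60.4% in spring, and the miR159 family 20.5% and 9.34%, while known miRNAs outside these families summed to 76292.8 RPM in winter and 58583.4 RPM in spring. Scaling both libraries to the summed RPM of all listed miRNAs moved every log2 ratio up by 0.24, and 55 known names were then higher and 54 lower. With miR168 and miR159 left out of that sum the shift was 0.41, with 58 higher and 50 lower. A median-of-ratios scaling over 179 names moved the ratios by 0.10 and gave 49 higher and 66 lower. A shift of this size cannot turn the sign of a called name, but of the 59 known called names above 0 in both libraries 11 lower names came within 2-fold under the sum of all listed miRNAs and 14 without miR168 and miR159 in that sum. These included miR156a-5p, miR9662a-3p, miR9863a-3p and miR2118c under both, and miR159a.1 and miR5048-5p under the latter. Names and medians reported below as less than 0.41 under 0 in log2 ratio, such as those of miR164a, miR165a-3p and miR171a-3p, changed sign under the latter as well.

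Summed by family, 186 of 290 families exceeded 5 RPM in at least 1 of the libraries, of which 34 were higher (18.3%) and 50 were lower (26.9%). The counts of each group of families below stand beside 19.9% higher and 29.6% lower over all known names over 5 RPM. The first group of families considered was that of phase change and flowering. miR156 represses SPL transcription factors and so holds plants in the juvenile phase, miR172 represses AP2-like factors, and miR5200 cleaves transcripts of the florigen FT in Brachypodium. Of 7 names of this group over 5 RPM 4 were lower and 1 was higher. The 5 names above 0 in both libraries were miR156a-5p, miR156d-3p, miR5200a-3p, miR5200-5p and miR172a-5p. All were below 0 in log2 ratio, with a median of -1.14 against -0.15 over all known names. miR156 and miR5200 each entered with names of both arms, so this median does not rest on separate families. miR172a-5p, at -0.02, came above 0 under each of the other scalings (0.08, 0.22 and 0.40).

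miR5200a-3p stood at 3789.9 RPM in winter and 531.2 RPM in spring, 7.13-fold lower (interval 6.98 to 7.29). The other arm, miR5200-5p, stood at 504.8 and 137.9 RPM, 3.66-fold lower (3.50 to 3.83). Both arms were highest in winter of the 4 libraries, with 2298.1 and 371.1 RPM at the three-leaf stage, and both stayed low at jointing, with 437.1 and 149.2 RPM. miR156a-5p was 2.20-fold lower (2.16 to 2.25), at 1483.2 RPM in winter and 673.4 RPM in spring, and its level at jointing was 826.4 RPM. miR156d-3p was within 2-fold, at 119.8 and 69.7 RPM. miR172a-5p was nearly level, at 8.5 RPM in winter and 8.4 RPM in spring (1.01-fold lower, 0.813 to 1.27), and reached 97.7 RPM in the jointing library. miR172e-3p was listed at 2.3 RPM in winter and at 0 in spring, below the level limit. Of the remaining names, miR157d was listed at 5.3 RPM in winter and 0 in spring, and miR157b-3p at 0 and 21.2 RPM.

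miR159 represses GAMYB-like factors, miR319 represses TCP factors that act in leaf growth, and miR170 and miR171 repress GRAS factors. Of 6 names of this group over 5 RPM 3 were lower and 1 was higher. miR159a.1, the name with the second highest mean of both libraries, stood at 46342.4 RPM in winter and 18090.8 RPM in spring, 2.56-fold lower (2.55 to 2.57). Its level was close to that of winter at the three-leaf stage (50794.9 RPM) and to that of spring at jointing (17875.4 RPM). miR319b-3p was 7.94-fold lower (7.45 to 8.47), at 462.3 and 58.2 RPM, and it was already lower in winter than at the three-leaf stage (2474.2 RPM). miR319-5p stood at 12.5 RPM in winter and 0.4 RPM in spring, 31.2-fold lower, where the small number of spring reads left the interval wide (15.5 to 81.4). miR319c, near-identical in sequence to miR319b-3p, was listed at 0 in winter and 10.7 RPM in spring. The summed family was 6.85-fold lower, at 474.8 and 69.3 RPM. At jointing miR319b-3p was listed at 0, while miR319c and the near-identical miR319a-3p stood at 207.2 and 234.1 RPM. The summed family stood at 441.3 RPM there. The miR170 and miR171 names differed less, with miR171b at 3351.1 and 2406.6 RPM and miR171a-3p at 2190.1 and 1881.1 RPM.

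Among the families that act on auxin response, miR160 and miR167 repress auxin response factors, miR393 represses the TIR1/AFB receptors, and miR390 starts the production of tasiRNAs against further response factors. 1 of 6 names over 5 RPM was higher and none was lower. miR160a-5p stood at 51.3 RPM in winter and 535.2 RPM in spring, 10.4-fold higher (9.79 to 11.1), and continued to 763.6 RPM at jointing. Winter was its lowest library, since 146.7 RPM was found at the three-leaf stage. The other names stayed within 2-fold. miR393-5p was 1.42-fold higher (1.37 to 1.47), at 317.8 and 451.3 RPM, and miR167a 1.34-fold higher (1.33 to 1.36), at 2377.5 and 3190.6 RPM. miR390a-5p, at 31 and 21.2 RPM, was 1.46-fold lower (1.29 to 1.67).

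In the families of leaf and organ growth names were found on both sides. Here miR164 represses NAC factors, miR165 and miR166 repress HD-ZIP III factors that set leaf polarity, miR396 represses growth-regulating factors, miR394 represses an F-box gene, and miR530 targets a PLUS3 domain gene in rice. Of 11 names over 5 RPM 4 were higher and 4 were lower, where names were placed by their family alone. miR394b-3p, counted among the higher names, does not overlap with miR394a in sequence. miR530-3p stood at 43.1 RPM in winter and 987.2 RPM in spring, 22.9-fold higher (21.4 to 24.5). Its other arm, miR530-5p, stood at 42.5 and 467.0 RPM, 11-fold higher (10.3 to 11.8). The arms were thus about level with each other in winter, while in spring the 3p name was the more abundant. At jointing both remained high, at 1254.7 RPM for miR530-3p and 1316.3 RPM for miR530-5p. miR394a was 14.3-fold higher (10.9 to 18.8), at 2.9 RPM in winter and 41.4 RPM in spring, followed by 49.2 RPM at jointing.

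In the same group the major strands of the leaf polarity and boundary miRNAs hardly differed, with miR165a-3p at 2429.2 and 2133.1 RPM and miR164a at 2422.5 and 2130.8 RPM, both 1.14-fold lower. Names listed for the other arm were lower by more than the rule, but they were placed there by name alone. Whether they pair with these strands or come from miRNA precursors was not tested. miR165a-5p stood at 130.3 and 33.9 RPM, 3.84-fold lower (3.52 to 4.20), and miR164b-3p at 6.7 and 1.8 RPM, 3.72-fold lower (2.51 to 5.57). miR396b-5p, the most abundant name of its family, stood at 1391.2 and 1706.2 RPM, 1.23-fold higher (1.21 to 1.25). miR396c-3p stood at 64.3 and 14.7 RPM, 4.37-fold lower (3.84 to 5.02). miR396e-5p was listed at 12.9 RPM in winter and 0 in spring. The summed miR396 family stood at 1468.4 and 1724.9 RPM.

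**Figure D2:**
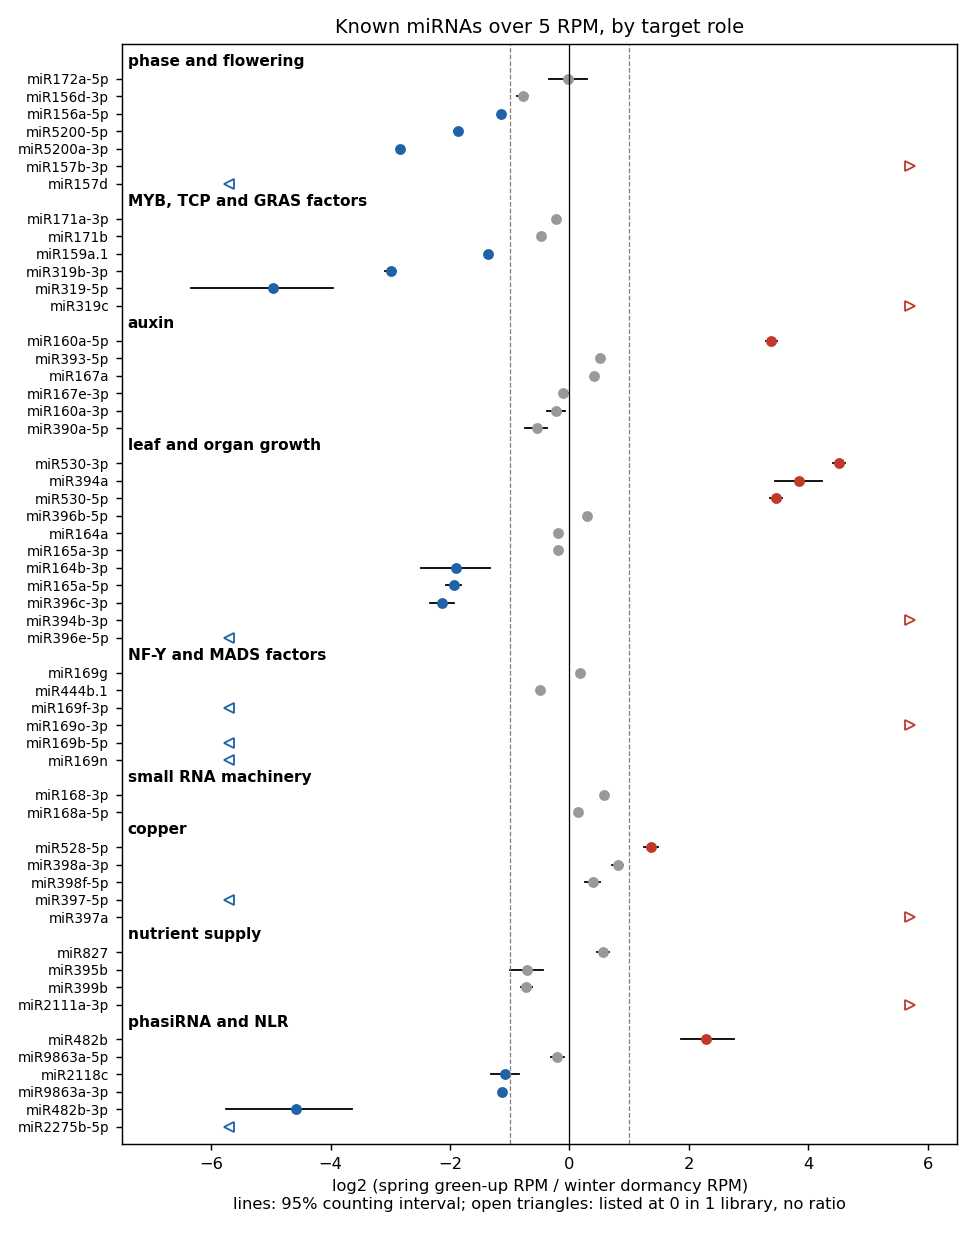
Log2 ratio of spring to winter for the known miRNAs over 5 RPM in the 9 groups of families, with the 95% counting interval as a line where it is wider than the point. Dashed lines mark 2-fold, and open triangles mark names listed at 0 in 1 library, for which no ratio is drawn. miR530-3p, at 4.52, is the rightmost point and miR319-5p, at -4.97, the leftmost.

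miR169 represses NF-YA subunits and miR444, found in monocots, represses MADS-box factors. Of 6 names over 5 RPM 3 were lower and 1 was higher, and 4 of these 6 were listed at 0 in 1 library. miR169f-3p was listed at 381.9 RPM in winter and 0 in spring, miR169b-5p at 148.0 RPM and 0, and miR169n at 10.9 RPM and 0. In the opposite direction miR169o-3p was listed at 0 in winter and 47.0 RPM in spring, and it was at 0 in the other libraries as well. By contrast the most abundant spring name, miR169g, stood at 356.8 and 404.1 RPM, 1.13-fold higher (1.10 to 1.17). The summed family was 1.99-fold lower, just inside the 2-fold limit, at 897.6 and 451.1 RPM. miR444b.1 stood at 1914.1 and 1363.8 RPM, 1.40-fold lower (1.38 to 1.43).

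The miRNAs that act on the small RNA machinery itself stayed within 2-fold. miR168, which represses AGO1, was the most abundant family in both libraries. miR168a-5p stood at 98539.7 RPM in winter and 109365.5 RPM in spring, 1.11-fold higher, and miR168-3p at 5111.4 and 7628.8 RPM, 1.49-fold higher (1.48 to 1.5). miR162a-3p, whose family represses DCL1, was listed at 0 in winter and 0.6 RPM in spring, and miR403-3p at 0 in both.

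The copper-regulated miRNAs repress transcripts of copper proteins when copper is short. Of 5 names over 5 RPM 2 were higher and 1 was lower, and the 3 of these above 0 in both libraries all had a log2 ratio above 0, with a median of 0.81. miR528-5p stood at 44.4 RPM in winter and 114.4 RPM in spring, 2.58-fold higher (2.38 to 2.79), and it reached 426.7 RPM at jointing. miR398a-3p was 1.75-fold higher (1.64 to 1.87), at 74.1 and 129.7 RPM, and miR398f-5p 1.31-fold higher (1.2 to 1.43), at 45.5 and 59.6 RPM. miR397a, the laccase regulator, was listed at 0 in winter and 34.9 RPM in spring, against 13.8 RPM at the three-leaf stage and 51.1 RPM at jointing. miR397-5p was listed at 17.9 RPM in winter and 0 in spring. miR528a-3p and miR408d were not over the level limit, at 5.0 and 4.9 RPM and at 0.8 and 2.0 RPM.

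Among the miRNAs of nutrient supply, miR395 acts on sulfate assimilation and miR399 and miR827 on phosphate supply. 3 of the 4 names over 5 RPM were within 2-fold. miR399b stood at 146.9 and 88.9 RPM, 1.65-fold lower (1.55 to 1.76), whereas miR827 stood at 60.7 and 89.8 RPM, 1.48-fold higher (1.37 to 1.59). miR2111a-3p was listed at 1385.5 RPM in spring and at 0 in the other 3 libraries, the highest level of any name listed at 0 in winter. It was placed in this group by its name alone, and what it measures was not tested. The name miR2111a was listed at 0 in both compared libraries.

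The last group of conserved families was that of phasiRNA triggers and of miRNAs aimed at disease resistance genes of the NLR class. Of 6 names over 5 RPM 4 were lower and 1 was higher, beside 29.6% lower and 19.9% higher over all known names. miR9863a-3p, whose barley relatives target Mla resistance genes, stood at 470.3 RPM in winter and 214.8 RPM in spring, 2.19-fold lower (2.11 to 2.27), while miR9863a-5p stayed at 82.1 and 71.0 RPM. miR2118c was 2.11-fold lower, at 24.1 and 11.4 RPM, with an interval (1.79 to 2.49) that included 2-fold. The miR482 names moved apart, with miR482b at 2.7 and 13.2 RPM, 4.89-fold higher (3.66 to 6.73), and miR482b-3p at 12 and 0.5 RPM, 24-fold lower (12.5 to 53.6). Their summed level was therefore close, at 14.7 and 13.7 RPM. miR2275b-5p, of 21 nt, belongs to a family that starts phasiRNA production in anthers of grasses. It was listed at 1831.5 RPM in winter and 1568.0 RPM at the three-leaf stage, and at 0 in spring and at jointing. The name of the other arm, miR2275b-3p of 22 nt, was listed at 0.6 RPM at the three-leaf stage and at 0 in both compared libraries. Which of the arms acts in these leaves was not tested.

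Of 33 names over 5 RPM in the families numbered miR9652 to miR9783, a range that includes many first named in wheat, 8 were higher and 7 were lower, and the median log2 ratio of the 29 names above 0 in both libraries was -0.32. These counts lie near the 19.9% higher and 29.6% lower of all known names, whose median was -0.15. miR9672b stood at 914.6 RPM in winter and 2333.4 RPM in spring, 2.55-fold higher (2.51 to 2.60), and miR9672a-3p, the same strand shifted in position, stood at 49.2 and 145.6 RPM, 2.96-fold higher (2.75 to 3.18). Both were higher still at jointing, at 3917.5 and 283.4 RPM. miR9676-5p, at 63.4 RPM in winter, was 2.51-fold higher in spring (2.35 to 2.68) and reached 602.5 RPM at jointing. miR9674b-5p, among the 10 most abundant names, was within 2-fold at 2971.5 and 2375.9 RPM. In the other direction miR9662a-3p, one of the most abundant names, stood at 4960.6 and 2269.0 RPM, 2.19-fold lower (2.16 to 2.21). miR9653b was 4.34-fold lower (4.15 to 4.54), at 540.1 and 124.4 RPM, and returned to 506.6 RPM at jointing, so that spring was its only low library. miR9774 was also lowest in spring, at 155.6, 55.1 and 443.7 RPM in the winter, spring and jointing libraries. miR9653a-3p differed from miR9653b in direction, at 31.2 RPM in winter and 78.4 RPM in spring, 2.51-fold higher (2.29 to 2.76).

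The remaining 140 names over 5 RPM belonged to none of these groups, and 25 of them were higher and 41 lower. miR5048-5p was the most abundant of the lower names here, at 7626.3 RPM in winter and 3172.5 RPM in spring, 2.4-fold lower (2.38 to 2.43). miR5062a, at 4891.1 and 2493.4 RPM, was 1.96-fold lower and so within the rule, and miR7757-5p was almost level at 5969.1 and 5808.7 RPM. Larger differences were found at lower levels. miR2199 stood at 288.9 and 70.2 RPM, 4.12-fold lower (3.87 to 4.37), and miR5168-5p at 65.7 and 17.7 RPM, 3.71-fold lower (3.28 to 4.20). Whether the bases of miR2199 also occur in ribosomal RNA was not tested. miR6300 was 3.95-fold lower (3.66 to 4.25), at 184.3 and 46.7 RPM. Its sequence begins like the 5′ end of a plant aspartate tRNA. On the other side miR5139 stood at 31.7 and 129.7 RPM, 4.09-fold higher (3.75 to 4.47), and miR2876-5p at 36.5 and 96.4 RPM, 2.64-fold higher (2.42 to 2.88). miR1135 was 2.54-fold higher (2.34 to 2.77), at 39.5 and 100.5 RPM. miR1139 had the largest fold of any known name above 0 in both libraries, at 0.5 RPM in winter and 41.4 RPM in spring (82.8-fold, 46.0 to 178), but it stood at 37.5 RPM at the three-leaf stage and 33.5 RPM at jointing, so that winter was its only low library.

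**Figure D3:**
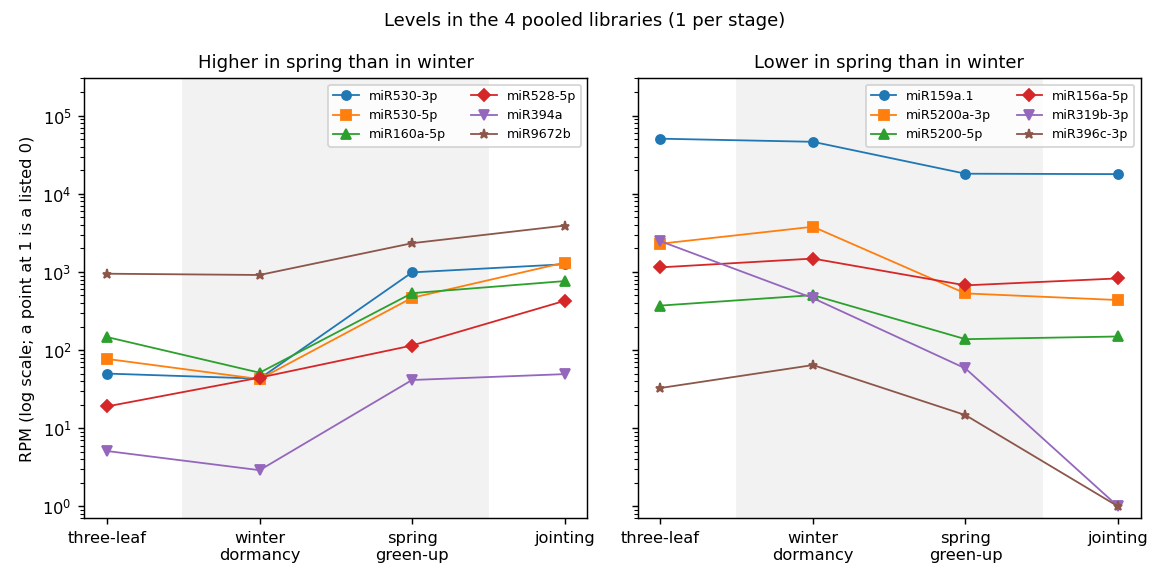
Levels of 12 known miRNAs in the 4 pooled libraries in RPM on a log axis, 1 library per stage, with the compared libraries shaded. On the left, miR530-3p, miR530-5p, miR160a-5p, miR394a and miR9672b were low at the three-leaf stage and in winter and high in spring and at jointing. On the right, miR159a.1 and miR5200a-3p were high in the earlier libraries and low in the later ones, and points at 1 stand for a listed 0 of miR319b-3p and miR396c-3p at jointing. The names miR319a-3p and miR319c, near-identical to miR319b-3p and not drawn, stood at 234.1 and 207.2 RPM at jointing.

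The same strand was not always the one that differed. The arms could be compared for 16 miRNA numbers with 1 name for each arm over 5 RPM in at least 1 library. The names of a pair sometimes carry different letters (miR156a-5p and miR156d-3p, for example) and may come from different precursors. Whether the sequences of a pair form a duplex was not tested. Both arms were called the same way for 3 numbers, miR319, miR530 and miR5200. For 7 numbers 1 arm was called, for 6 neither, and for none were the arms called in opposite directions. The widest gap was that of miR160, where miR160a-5p differed 10.4-fold and miR160a-3p stayed at 40.9 RPM in winter and 34.9 RPM in spring. The ratio between arms also moved for miR9652, with miR9652-5p at 1215.7 and 755.7 RPM and miR9652-3p at 75.6 and 25.3 RPM, 2.99-fold lower (2.69 to 3.32).

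**Figure D4:**
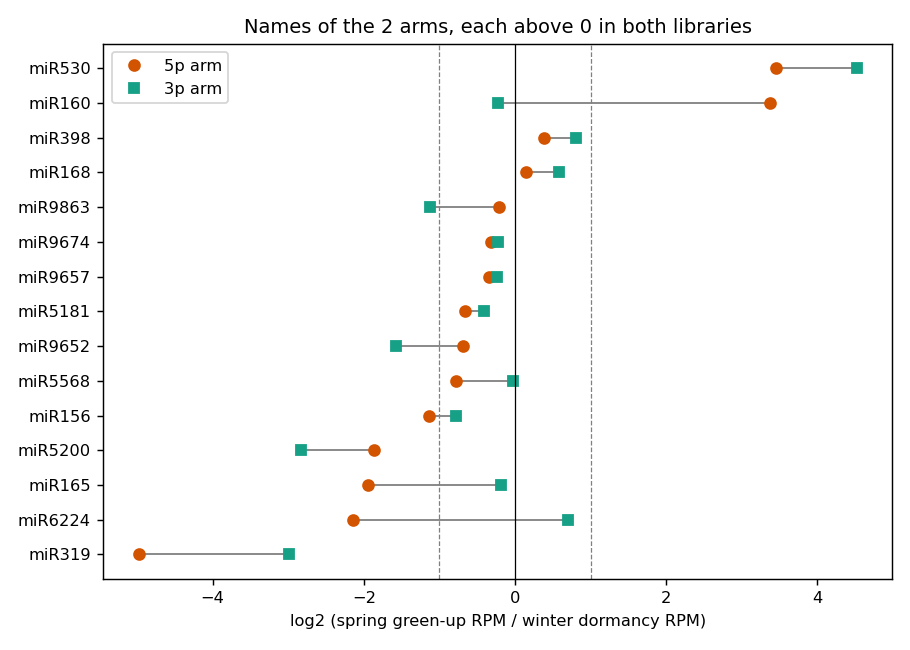
Log2 ratio of spring to winter for the 5p name (circle) and the 3p name (square) of the 15 miRNA numbers with both names above 0 in both libraries. The names of miR160 lie at 3.38 and -0.23, and those of miR6224 at -2.14 and 0.70, while those of miR9674 lie at -0.32 and -0.22.

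Many of the called names were listed in only 1 of the 2 libraries, and some at high levels. The 32 lower names listed at 0 in spring ranged from 5.2 to 1831.5 RPM in winter, with a median of 18.8 RPM. 10 of them were also at 0 in both other libraries, and 11 were above 0 in both. The 21 higher names listed at 0 in winter ranged from 8.7 to 1385.5 RPM in spring, with a median of 34.9 RPM, and 14 of them were found in no other library. Besides miR2275b-5p, miR169f-3p and miR169b-5p, names over 50 RPM in winter and at 0 in spring included miR5175a (171.1 RPM), miR952b (165.9 RPM), miR5809 (132.2 RPM), miR5205b (118.3 RPM), miR5671a (88.6 RPM) and miR5241a (65.6 RPM). Besides miR2111a-3p, those over 50 RPM in spring and at 0 in winter were miR8742a (397.5 RPM), miR5205a (120.7 RPM), miR8030-5p (81.9 RPM), miR9748 (75.4 RPM), miR5303c (73.5 RPM), miR5175-5p (54.1 RPM) and miR3627a (51.2 RPM). Several of these are names whose sequence is close to that of another listed name.

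To see what the names shared, sequences that aligned over at least 18 bases without a gap and with at most 2 mismatches were grouped. This gave 39 groups of 98 names, and 22 groups held at least 1 called name. miR6220-5p and miR6224a-5p carry identical sequences, as printed above, yet the first stood at 83.9 RPM in winter and 223.1 RPM in spring (2.66-fold higher) and the second at 292.4 and 66.4 RPM (4.4-fold lower). Together with the near-identical miR5174a they summed to 688.0 and 471.2 RPM, within 2-fold. The called names miR5175a, listed only in winter, miR5205a, at 0 only in winter, and miR1135 belong to a group of 9 names that summed to 1567.8 and 1693.1 RPM. In the miR169 group with miR169g, miR169a-5p, miR169b-5p and miR169n the sum was 515.7 and 404.1 RPM. In all, 10 of the 135 called names lay in a group whose sum was not past the rule.

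Other groups kept their difference when summed. miR9672a-3p and miR9672b summed to 963.8 and 2479.0 RPM, 2.57-fold higher. miR319a-3p, miR319b-3p and miR319c summed to 462.3 and 68.9 RPM, 6.71-fold lower. miR1023a-3p with miR5241a summed to 728.5 and 356.1 RPM, 2.05-fold lower. miR1130b-3p with miR5205b, miR1120 and miR1120b-3p summed to 344.5 and 140.7 RPM, 2.45-fold lower. That sum includes miR5205b, listed at 118.3 RPM in winter and 0 in spring. The miR5205 family, which also holds miR5205a, was level at 118.3 and 120.7 RPM, so this difference depended on how its reads were named. miR394b-3p (29.5 RPM) and miR9748 (75.4 RPM), found only in the spring library, overlap in sequence with each other and not with miR394a:
miR394b-3p: aGGUGGGGaugacgucaagu
miR9748: gAGGAAGGuggggaugacgucaa
The bases they share also occur in a conserved stretch of the small-subunit ribosomal RNA of bacteria and plastids.

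**Figure D5:**
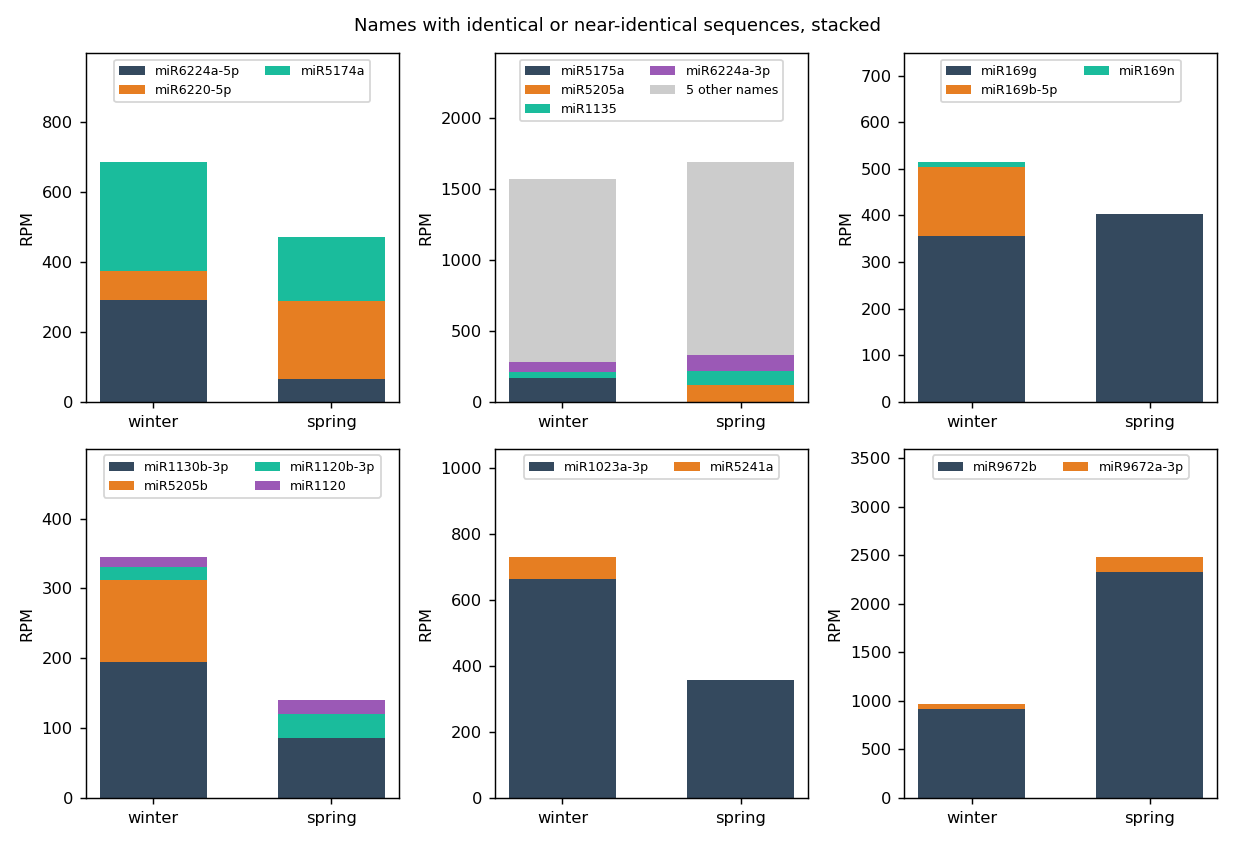
Summed level in RPM of 6 groups of names with identical or near-identical sequences, in the winter and the spring library, with each name as a segment of the bar. miR6220-5p and miR6224a-5p exchanged rank at the same sequence, the group with miR5175a and miR5205a stayed near its level, and the miR9672 names were both higher in spring, with 2479.0 RPM in sum.

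Over all known names over 5 RPM 19.9% were higher and 29.6% lower. By length, the 119 names of 21 nt over 5 RPM held 20 higher and 33 lower names and had a median log2 ratio of -0.19. The 56 names of 24 nt held 13 higher and 14 lower names with a median of 0.09, and their summed level was 4419.0 RPM in winter and 5464.4 RPM in spring. The 27 names of 22 nt held 6 higher and 11 lower names with a median of -0.57. Names listed at 0 in 1 of the libraries were 14.3% of those of 21 nt and 37.5% of those of 24 nt. By first base, they were 13.0% of names starting with U, the usual first base of miRNAs bound by AGO1, and 35.9% of those starting with G. The 7 bases ACGGAGG or their reverse complement CCUCCGU, the end of Stowaway-like inverted repeats, were found in 17 of 370 known sequences. All 17 were over 5 RPM, 2 were higher and 4 were lower, and the median of the 13 above 0 in both libraries was 0.13 against -0.18 for the names without these bases.

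Predicted miRNAs, which matched no listed plant miRNA and came from hairpins in the wheat genome, were mostly lower in the spring library. Of 58 over 5 RPM 6 were higher (10.3%) and 17 were lower (29.3%), and of the 48 above 0 in both libraries 38 (79.2%) had a log2 ratio below 0, with a median of -0.57. This split too depended on the scaling, with 10 higher and 12 lower when scaled to all listed miRNAs, and 12 higher and 10 lower when miR168 and miR159 were left out of the sum. The summed level of the predicted miRNAs was 5677.0 RPM in winter and 2933.4 RPM in spring. In the deposited RPM the counting interval was wholly past 2-fold for 4 of the 6 higher and 12 of the 17 lower names. The most abundant, novel_miR1202, stood at 1921.9 and 1208.2 RPM, 1.59-fold lower (1.56 to 1.62). The largest differences in RPM were those of novel_miR1560, novel_miR1202 and novel_miR1544.

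novel_miR1544 stood at 915.8 RPM in winter and 267.9 RPM in spring, 3.42-fold lower (3.31 to 3.53). It is the 3p arm of a precursor on chromosome 7D (chr7D:33225951-33226049, plus strand, wheat genome of Ensembl Plants release 31). novel_miR1560, from chr7D:154998364-154998643 on the plus strand of the same build, was listed at 757.2 RPM at the three-leaf stage, 777.6 RPM in winter, and 0 in spring and at jointing. novel_miR2745, from chr3B:727179272-727179624 on the minus strand, was listed at 198.2 RPM in winter and at 0 in the other 3 libraries. Gene models of this build were not used here. novel_miR390 was the exception among the abundant names, at 143.1 and 246.9 RPM, 1.73-fold higher, and novel_miR1686 stood at 159.6 and 102.2 RPM, 1.56-fold lower (1.47 to 1.65).

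The 6 higher predicted names were all low. novel_miR1154 reached 18.7 RPM in spring from 7.4 RPM in winter, 2.53-fold higher, and stood at 62.2 RPM at jointing. novel_miR2185 was listed at 0 in winter and 13.7 RPM in spring, and novel_miR669 stood at 6.4 and 12.9 RPM, 2.02-fold higher. novel_miR4191 (11.5 RPM) and novel_miR4740 (7.3 RPM) were listed in spring only, and novel_miR1613 stood at 3.0 and 6.2 RPM. All 6 had a detected partner strand in the deposited table, as did 9 of the 17 lower names. Among the lower names without a detected partner strand, novel_miR1620 stood at 165.0 and 45.5 RPM, 3.63-fold lower (3.36 to 3.92), and novel_miR1615 at 75.4 and 35.9 RPM, 2.10-fold lower (1.91 to 2.30). The other lower names that were above 0 in both libraries reached at most 33.2 RPM in winter, which was the level of novel_miR1419, 2.39-fold lower (2.06 to 2.77) at 13.9 RPM in spring.

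Set beside the neighbouring steps, which share these libraries, the spring step was the one with more lower than higher known names in the deposited RPM. That direction depended on the scaling. Scaled to all listed miRNAs, the spring step held 55 higher and 54 lower names, and without miR168 and miR159 in that sum 58 and 50. Shares of all steps are given in the deposited RPM only. From the three-leaf stage to winter 14.5% of known names over 5 RPM were higher and 13.2% lower, from winter to spring 19.9% and 29.6%, and from spring to jointing 37.7% and 13.6%. Of the known names above 0 in any library, 18 were found in winter only and 18 in spring only, against 15 at the three-leaf stage only and 59 at jointing only.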

How the data were processed

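Small RNAs of leaves at 4 growth stages were sequenced by the authors on a BGISEQ-500RS, 1 pooled library per stage. Per the methods of the study, adaptors and low-quality reads were removed, reads of ribosomal, transfer and other structural RNAs and of repeats were filtered out, and the remaining reads were matched to plant miRNAs of miRBase 21, allowing fewer than 2 mismatches by the methods and at most 2 by another statement of the study. Reads with no match were mapped to the wheat genome of Ensembl Plants release 31, and hairpins were called with MIREAP and checked with Mfold. The deposited values are RPM rounded to 1 decimal, normalized by the authors to the reads of each library. The read statistics of the study give ribosomal RNA a smaller share of the spring library than of the winter library. Apart from miR394b-3p and miR9748, whether listed names carry bases of ribosomal RNA was not tested. The name miR531 and the name miR5050 stand in the table of known miRNAs with repeated equal values and were counted once, leaving 371 of 373 entries. Sequences of known miRNAs were taken from the supplementary sequence list of the study and those of predicted miRNAs from the deposited table, written with U. miR5050 has unequal sequences there and none was used. One group of near-identical names is not reported here.

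Reads per name were estimated as RPM times the mapped reads given for each library. 1 read was worth 0.0487 RPM in the winter library and 0.0552 RPM in the spring library. Values under 3 reads were set to 3 reads (0.146 and 0.165 RPM) to apply the rule of more than 2-fold and over 5 RPM in at least 1 library. The study used these limits too, but took the level over all 4 stages and also required a p-value from DEGseq, which was not computed here. Intervals are exact (Clopper-Pearson, 95%), and the fold and interval functions were tested on simulated data. With 1 library per stage no test was run. Family and target groups were set from textbook roles. The names in the text are members of those groups, the 10 largest folds each way among known names over 50 RPM in 1 library, known names over 50 RPM against a listed 0, the 10 known and 5 predicted names with the highest mean, predicted names past the rule, and names of near-identical sequence. miR1139 was added for its size after its value was seen. The comparison, the groups and the alternatives were chosen with earlier results of these data known. Other scalings, pseudocounts, limits and groupings were tried. Tools were Python 3.11.15 with numpy 2.4.6, pandas 2.3.3, scipy 1.17.1 and matplotlib 3.10.9.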

Additional observations from a re-analysis of the deposited data

How the results depend on the processing

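Of 56 alternative counts of higher and lower names or families, 39 stayed within 1.5 times the count reported and 17 did not. A level limit of over 50 RPM left 21 higher and 36 lower known names and 0 higher and 5 lower predicted names. Leaving out names listed at 0 in either library left 24 higher and 35 lower known names, 3 and 10 predicted names, and 20 and 27 families, because fewer names were then counted. Scaling to the sum of all listed miRNAs gave 10 higher predicted names, and without miR168 and miR159 in that sum 12 higher and 10 lower. A fold limit of 1.5 gave 10 higher and 30 lower predicted names and one of 3 gave 3 and 11. Under the scaling to all listed miRNAs families split into 42 higher and 39 lower, against 34 and 50. Pseudocounts of 1 and 0.1 RPM left the known counts at 45 and 67, and summing near-identical sequences gave 38 higher and 60 lower. For predicted names a pseudocount of 1 RPM gave 4 higher and 15 lower, and one of 0.1 RPM gave 5 and 17. No paired analysis was possible because each stage has 1 pooled library. Depth limited most the names under 1 RPM in 1 library, such as miR319-5p, whose interval spanned 15.5 to 81.4.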

Other observations

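A set of 11 known sequences ends in CCA, the bases that close every mature tRNA. It was picked after values had been seen, and it also holds ordinary miRNAs such as miR160a-5p and miR2275b-5p. 10 of the 11 were over 5 RPM in at least 1 of the libraries. miR8175, one of them, resembles the 3′ end of aspartate tRNA and stood at 180.1 RPM in winter and 310.2 RPM in spring, 1.72-fold higher. miR6300, outside the set, resembles the 5′ end of that tRNA and stood at 184.3 and 46.7 RPM. miR5139 was 4.09-fold higher, whereas miR8155, which is the same sequence with 1 more base at the 5′ end, stood at 7.6 and 4.8 RPM. miR5072 (54.3 and 48.6 RPM), miR5054 (59.7 and 64.8 RPM) and miR894 (107.7 and 87.7 RPM) stayed close to level. What these names measure was not tested.

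Some names stood apart in the spring library alone. miR9653b, at 535.3, 540.1, 124.4 and 506.6 RPM from the three-leaf stage to jointing, and miR9774, at 269.5, 155.6, 55.1 and 443.7 RPM, were lowest there, as was miR2199 at 186.2, 288.9, 70.2 and 186.8 RPM. miR6220-5p was highest there, at 44.2, 83.9, 223.1 and 48.2 RPM, and miR6224a-5p, of identical sequence, was lowest, at 185.0, 292.4, 66.4 and 182.5 RPM.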
